A study of Mus musculus with 7 samples.

Results

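The genes followed here, 10 in number, act as brakes on, or as transcriptional outputs of, the ERK kinases: the phosphatase genes Dusp4, Dusp5 and Dusp6, the Sprouty and Spred genes Spry1, Spry2, Spry4, Spred1 and Spred2, and the ETS transcription factor genes Etv4 and Etv5. They were chosen by name, and all 10 are among the 21892 gene symbols of the deposited table. The material was mouse lung tumor tissue with an exon 19 deletion of Egfr, grown under the skin of C57BL/6 mice and measured by bulk RNA sequencing. The values are TPM, in which each transcript's abundance is corrected for its length and scaled to a common total, so levels of different genes may be set side by side. Each of the 7 groups is 1 library: vehicle at day 3; gefitinib, an inhibitor of the EGFR kinase, for 3 days; gefitinib for 14 days; and 4 groups at day 21 that had received 14 days of gefitinib and then 7 days of vehicle, of DC101 (an antibody to VEGFR2), of 4H2 (taken as the antibody to PD-1, the other target in the series title) or of both antibodies. For the vehicle libraries the treatment field names no treatment, at day 21 for the 7 days that followed gefitinib. All day 21 groups, the vehicle group included, share the earlier gefitinib and the 7 days off it. The sources used here do not say how many animals stand behind a library. The tissue is labelled lung tumor although it was passaged under the skin, and the label is checked below against epithelial genes.

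ERK is the last kinase of the cascade that runs from a receptor such as EGFR through RAS, RAF and MEK. Active ERK switches on genes whose products dampen the same cascade: DUSP phosphatases remove the activating phosphates from ERK, and Sprouty and Spred proteins act further up, near RAS and RAF. ETV4 and ETV5 are DNA-binding factors of the PEA3 group whose transcription depends on ERK in many epithelia, and in EGFR-mutant lung tumors this group of transcripts is commonly read as a gauge of pathway output. The same genes are also expressed by other cell types of a tumor, so in whole tissue their level depends on the mix of cells as well as on signalling. Fewer tumor cells and less RNA per tumor cell cannot be told apart in such samples.

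The sequence before the start site is shown for 3 members. Dusp5 kept a course of its own in the data below. Dusp6 and Spry2, the members with a match to the Capicua octamer described below, were lower on gefitinib as most members were. Spry1, Spred1, Spred2 and Etv5 were also lower there and have windows that are not shown, those of Spry1 and Etv5 without any match. A link between motifs and levels was not tested. Each run is the 250 bases before the annotated start, from RefSeq on GRCm38.p6, read 5′ to 3′ on the gene's strand, and capitals mark motif matches on either strand.
Dusp5, chr19:53528895-53529144, plus strand: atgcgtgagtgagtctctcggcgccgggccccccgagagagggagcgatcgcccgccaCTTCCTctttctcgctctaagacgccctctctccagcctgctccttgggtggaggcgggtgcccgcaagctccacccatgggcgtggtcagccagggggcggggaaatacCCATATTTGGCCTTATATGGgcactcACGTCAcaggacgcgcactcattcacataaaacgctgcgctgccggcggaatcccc
Dusp6, chr10:99262981-99263230, plus strand: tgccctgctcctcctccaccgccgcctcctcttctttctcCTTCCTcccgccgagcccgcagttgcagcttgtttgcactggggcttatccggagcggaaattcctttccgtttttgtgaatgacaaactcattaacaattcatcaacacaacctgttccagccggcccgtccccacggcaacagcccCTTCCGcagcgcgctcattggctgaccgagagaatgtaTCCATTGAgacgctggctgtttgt
Spry2, chr14:105896820-105897069, minus strand: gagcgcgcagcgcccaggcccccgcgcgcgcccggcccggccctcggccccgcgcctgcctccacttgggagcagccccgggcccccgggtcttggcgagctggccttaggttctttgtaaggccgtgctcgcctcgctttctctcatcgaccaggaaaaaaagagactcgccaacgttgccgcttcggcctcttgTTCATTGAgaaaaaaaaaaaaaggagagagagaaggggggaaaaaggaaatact

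Windows of 7 of the 10 members were searched. The sequence source held none for Dusp4 and Etv4, and Spry4 was not included in the search. The CArG box, the site bound by serum response factor at immediate early genes, was present in 2 adjoining copies before Dusp5, the first from base -82 to base -73 and the other from base -72 to base -63 relative to the start. Of 32851 windows of this length in the table, 1.47% held at least 1 CArG box and 6 windows, 0.0183%, held 2. The motifs were chosen with the sequences in view, so these and the following shares do not measure how unexpected a match is. An octamer of Capicua, the repressor that ERK inactivates (searched as TGAATGAA, TGAATGGA, TCAATGAA and TCAATGGA), had 1 match before Dusp6, from base -24, and 1 before Spry2, from base -54; 3.19% of windows held one. ETS-type letters CGGAAG were present before Dusp6, Spred1 and Spred2 and in 13.6% of windows, and AGGAAG before Dusp5, Dusp6 and Spred2 and in 29.5%. The letters TGACGT, the core of a cAMP response element, were present before Dusp5 and Spred2 and in 6.47% of windows. TGACTCA, an AP-1 site held by 4.46% of windows, was in no window of the 7 members searched. Neither Spry1 nor either window of Etv5 held any of the letters searched. A match describes the letters only.

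**Figure D1:**
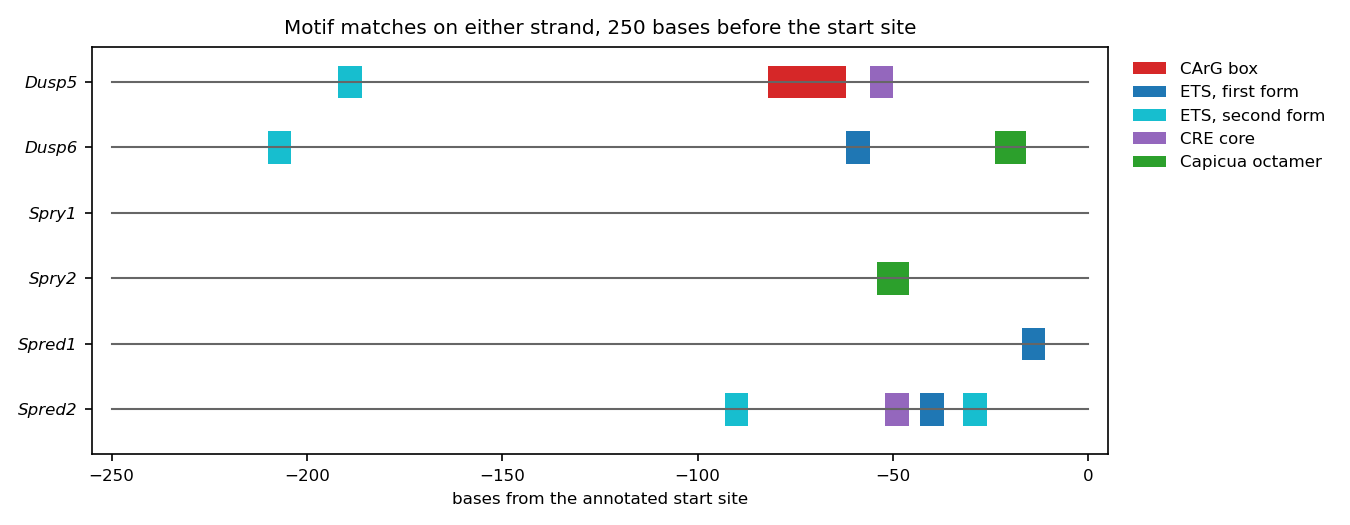
Motif matches on either strand in the 250 bases before the annotated start of 6 members, plotted by distance from the start in bases; each bar is 1 match and its color the motif, with CGGAAG as the first and AGGAAG as the second ETS form. The 2 CArG boxes of Dusp5 adjoin and appear as 1 red block; the Capicua octamer is drawn before Dusp6 and Spry2.

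The phosphatases did not share one course. Dusp6 (chromosome 10, 99263231 to 99267489), the ERK-selective phosphatase of the cytoplasm, was the most abundant member in all 7 libraries, at 296.1 TPM in vehicle at day 3, 114 and 125.5 at days 3 and 14 of gefitinib, 338 in vehicle at day 21, 258 with DC101, 39.9 with 4H2 and 55.6 with both antibodies. Both gefitinib libraries were thus below every library off the drug except those of the groups given 4H2. Dusp4 (chromosome 8, 34807610 to 34819894), an inducible nuclear phosphatase of ERK and other MAP kinases, had 173.2, 56.6, 49.6, 106.5, 111.2, 11.5 and 15.7 TPM, listed as for Dusp6 and as for all genes that follow. Its day 21 vehicle level was 61.5% of the day 3 vehicle level, where that of Dusp6 was 114.2%.

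Dusp5 (chromosome 19, 53529145 to 53541809), a nuclear phosphatase selective for ERK, had another course. Its levels were 17.2, 18.1, 37.8, 51.6, 35.4, 27.2 and 21.9 TPM. It was lowest in the day 3 vehicle library, where 8 of the other members were highest, and its day 21 vehicle level was 300.0% of that level.

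The Sprouty genes encode membrane-associated inhibitors of signalling from receptor tyrosine kinases to RAS and RAF. Spry1 (chromosome 3, 37639947 to 37644599) was at 138.5, 69.8, 56.5, 105.6, 98.3, 15.7 and 23.1 TPM. Spry2 (chromosome 14, 105891947 to 105896819) was at 76.1, 28.5, 29.2, 41.4, 40.3, 14.1 and 14.6 TPM. Spry4 was at 28.8, 19.8, 14.2, 17.7, 20.5, 3.6 and 5.8 TPM, the least abundant Sprouty gene in every library. All 3 were highest in the day 3 vehicle library and lowest with 4H2.

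Spred proteins bring neurofibromin, the RAS GTPase-activating protein encoded by Nf1, to the membrane. Spred1 (chromosome 2, 117121071 to 117182279) was at 168.5, 77.1, 72.6, 100.5, 101.7, 31 and 31.6 TPM. Spred2 (chromosome 11, 19924442 to 20024026) was far lower, at 12, 4.8, 6.6, 6.5, 6.7, 3.6 and 3.8 TPM, and was the lowest member in 6 of 7 libraries. Neither gene returned to the day 3 vehicle level at day 21: in the vehicle library Spred1 was at 59.6% of it and Spred2 at 54.2%.

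Etv4 (chromosome 11, 101769747 to 101785310) spanned the widest range of the members, 46.6-fold, at 163.1, 22.1, 47, 145.7, 132.5, 3.5 and 12.5 TPM. Its close relative Etv5 (chromosome 16, 22381313 to 22439570) spanned 3.00-fold, at 71.1, 31.6, 28.5, 38.4, 39.5, 23.7 and 27.2 TPM. Etv4 ranked 4 of 10 in vehicle at day 3, 7 at day 3 of gefitinib, 2 in vehicle at day 21 and last with 4H2, while Etv5 held ranks 3 to 8. With 1 library per group these orders carry no error.

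**Figure D2:**
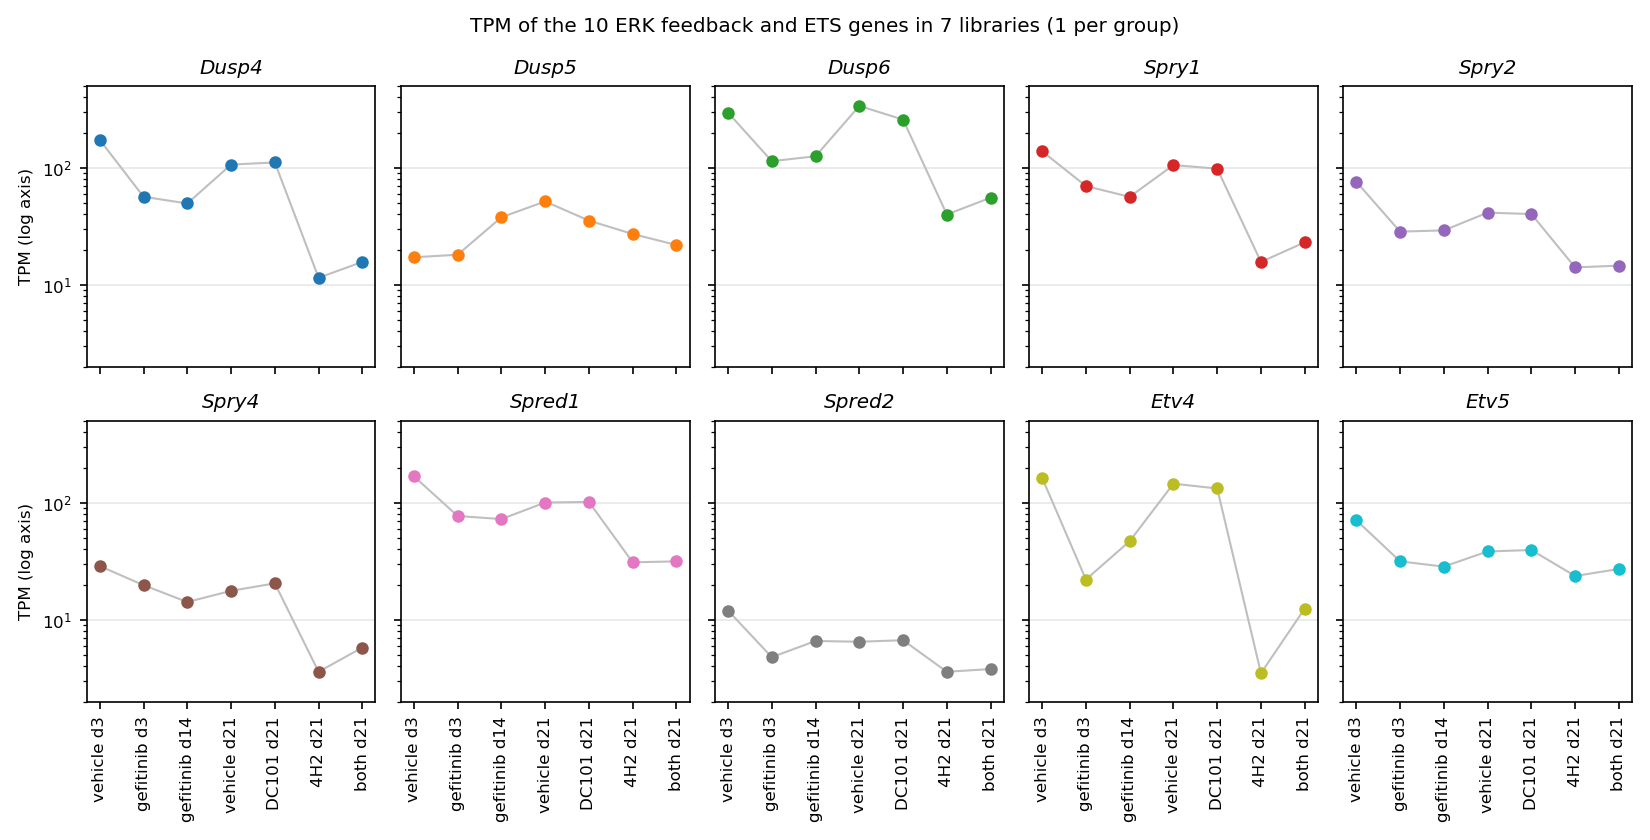
TPM on a log axis for each of the 10 genes (panels) in the 7 libraries, in treatment order; each point is 1 library and the grey line joins them as a guide. Etv4 spans 3.5 to 163.1 TPM, and Dusp5 alone is lowest in the first library.

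RNA of epithelial genes made up very different parts of these libraries. The 15 epithelial genes included keratin, adhesion and junction genes and regulators such as Elf3, Ehf, Grhl2, Esrp1 and Rab25. They held 0.465% of all TPM in vehicle at day 3, and 0.142% and 0.234% at days 3 and 14 of gefitinib. At day 21 they held 0.853% in vehicle, 0.575% with DC101, 0.00569% with 4H2 and 0.0459% with both antibodies. None of the 15 was listed at 0 in any library, but with 4H2 the tissue label rests on very little epithelial RNA. The summed TPM of the 10 members was 1145, 442.4, 467.5, 951.9, 844.1, 173.8 and 211.8 in that order. Marker lists of other cells were all lowest in vehicle at day 3: fibroblast genes ranged from 0.233% in vehicle at day 3 to 2.35% at day 3 of gefitinib, macrophage genes from 0.188% to 1.68%, T cell genes from 0.00234% to 0.0714%, endothelial genes from 0.0214% to 0.0531% and adipocyte genes from 0.00725% to 0.116%. Skeletal muscle genes ranged from 0.0294% to 1.60% in the first 5 libraries and were at 7.44% and 7.35% in the groups given 4H2. Their part in the members' levels was not tested.

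**Figure D3:**
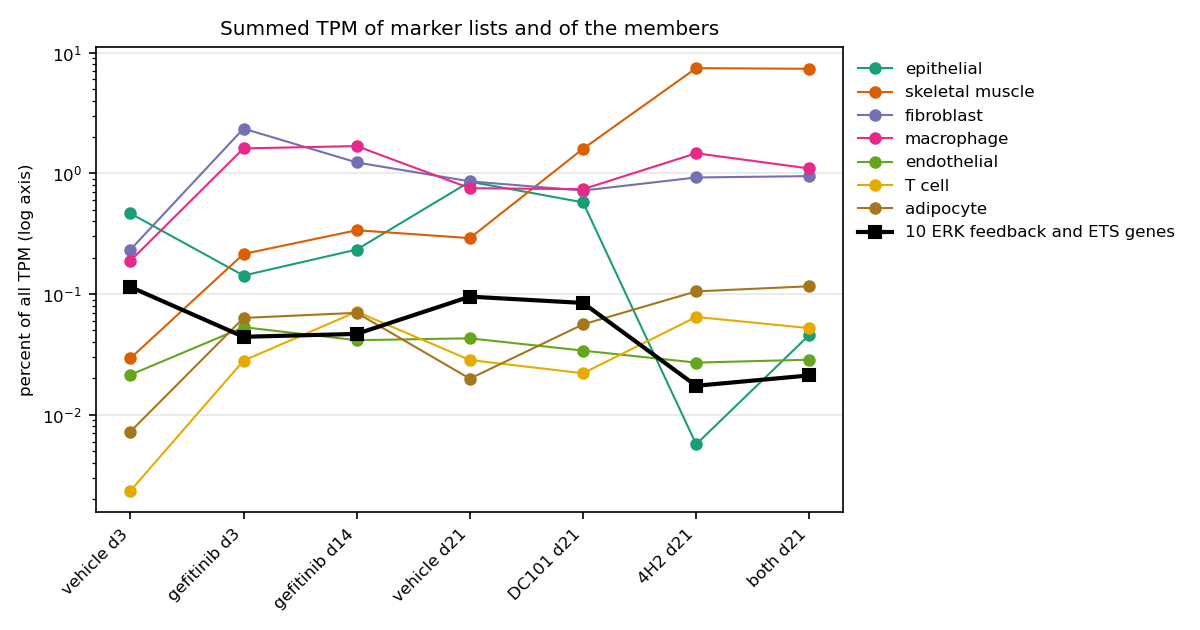
Summed TPM of 7 marker lists and of the 10 members (black squares) as a percentage of all TPM, on a log axis, in the 7 libraries; each point is 1 library. The epithelial list drops to 0.00569% with 4H2 while muscle genes reach 7.44%; the members vary less than the epithelial genes.

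At day 3 of gefitinib, against vehicle at day 3, members of all 3 roles were lower, Etv4 by the most, and Dusp5 was level. Differences are log2 ratios of TPM + 1, the treated or later library over the other, and a gene counts as higher or lower at 2-fold or more on that scale; 13997 genes whose mean TPM reached 1 were compared, all 10 members among them. Etv4 differed by -2.83 (7.38-fold in TPM), Dusp4 by -1.60, Spry2 by -1.39, Dusp6 by -1.37, Spred2 by -1.16, Etv5 by -1.15 and Spred1 by -1.12. Spry1 at -0.98 and Spry4 at -0.52 were under 2-fold, and Dusp5 was at 0.07. In all, 7 of 10 members were lower and none higher, against 14.4% of all genes lower and 20.8% higher. The member median was -1.15 and the median of all genes -0.09. Spred2 fell short of 2-fold with a pseudocount of 5 (-0.79), and Spred1 came out just under it with median-of-ratios rescaling. In the same pair the fibroblast, macrophage and T cell marker lists had medians of 2.82, 2.93 and 3.08, and their part in the members' values was not tested.

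The epithelial genes were lower still in the same pair of libraries. Their median was -1.69, with 13 of 15 lower, and 9 of the 10 members lay above that median; Etv4 was the exception, 1.14 below it. On the scale relative to the epithelial median, Dusp5 (1.76) and Spry4 (1.17) were at least 2-fold higher, Etv4 alone was at least 2-fold lower, and the other 7 lay between 0.09 and 0.71. Of all genes, 77.1% were at least 2-fold higher and 0.922% at least 2-fold lower on that scale. A position above the epithelial median was thus that of most of the table.

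How the members stood to the tumor cells depended on the gene taken to stand for those cells. Krt8 (chromosome 15, 101996711 to 102004342), a keratin of simple epithelium, was at 478.8, 189.9, 341.1, 1731, 1024, 6.6 and 72.7 TPM. Epcam (chromosome 17, 87635979 to 87651127), an adhesion molecule of epithelial cells, was at 571.2, 80.9, 101.8, 332.3, 406.7, 3 and 20.8 TPM. Krt8 per 100 TPM of Epcam therefore ran from 83.8 in vehicle at day 3 to 521.0 in vehicle at day 21, so these 2 epithelial genes did not keep a fixed ratio. Egfr (chromosome 11, 16752203 to 16913907), which carries the tumor mutation, was at 499.3 against 629.8 TPM at day 3 of gefitinib, a difference of -0.33, where Krt8 differed by -1.33 and Epcam by -2.80.

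Dusp6 per 100 TPM of Krt8 was 61.8 in vehicle at day 3 and 60.0 at day 3 of gefitinib, which is nearly the same. Per 100 TPM of Epcam it was 51.8 and 140.9, and per 100 TPM of Egfr 47.0 and 22.8, in opposite directions. Etv4 per 100 TPM was 34.1 and 11.6 against Krt8, 28.6 and 27.3 against Epcam, and 25.9 and 4.43 against Egfr, lower or level in each case. With Epcam as the reference 9 of 10 members were at least 2-fold higher and none lower at day 3 of gefitinib, and so were 95.6% and 0.229% of all genes, so this count is that of nearly the whole table. With Egfr none was higher and 4 were lower (Etv4 -2.49, Dusp4 -1.26, Spry2 -1.05 and Dusp6 -1.03), against 26.0% and 8.7% of all genes.

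**Figure D4:**
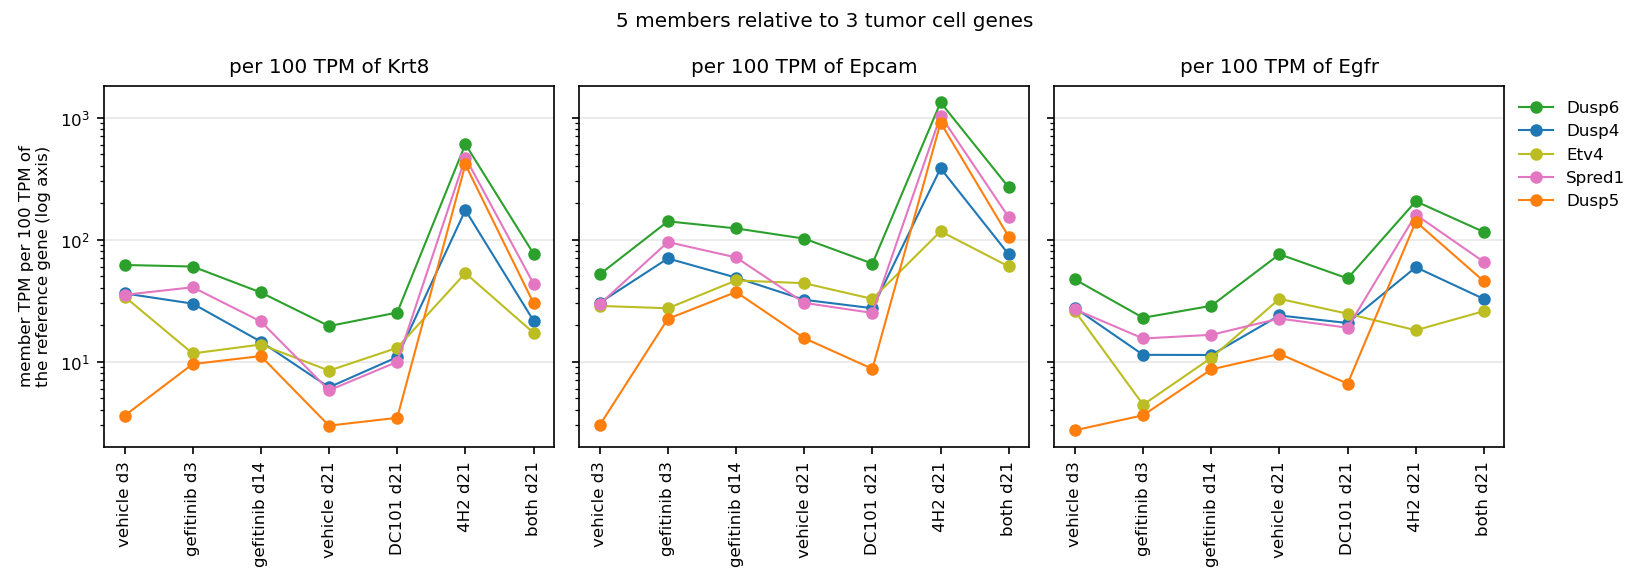
TPM of 5 members per 100 TPM of Krt8, Epcam or Egfr (panels), on a log axis, in the 7 libraries; each point is 1 library. From vehicle to gefitinib at day 3, Dusp6 is level against Krt8 (61.8 and 60.0), higher against Epcam (51.8 and 140.9) and lower against Egfr (47.0 and 22.8).

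By day 14 of gefitinib, again relative to vehicle at day 3, 7 members were lower and 1 was higher, against 12.7% and 22.7% of all genes. Dusp4 differed by -1.78, Etv4 by -1.77, Spry2 by -1.35, Etv5 by -1.29, Spry1 by -1.28, Dusp6 by -1.23 and Spred1 by -1.20. Spry4 at -0.97 and Spred2 at -0.77 were under 2-fold, and Dusp5 stood at 1.09. With a pseudocount of 5 Dusp5 was at 0.95, and with one of 0.1 Spry4 passed 2-fold at -1.02. The epithelial median was -1.05, so that 7 of 10 members now lay below it, by 0.16 to 0.74, where 1 of 10 had at day 3. The median of all genes was 0.03. This position depended on the reference: with Epcam alone those 7 were all positive, and with Nkx2-1 alone 5 of them were. With Krt8 or Egfr alone 2 further members turned negative. Relative to the epithelial median Dusp5 was at least 2-fold higher and no member 2-fold lower, against 53.3% and 2.67% of all genes. Between the gefitinib libraries, day 14 minus day 3, the epithelial median was 0.62 and the member median -0.03. In that pair Etv4 (1.06) and Dusp5 (1.02) were 2-fold higher and none lower, against 4.93% and 2.73% of all genes, and the other 8 members lay between -0.45 and 0.39. Both gefitinib comparisons use the same vehicle library, and for day 14 time and drug cannot be told apart. In the day 14 pair the marker lists of other cells were higher too, with medians of 4.58 for T cells, 3.60 for skeletal muscle, 3.10 for adipocytes, 3.03 for macrophages, 2.59 for fibroblasts and 1.32 for endothelium, and their part in the members' values was not tested.

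At 7 days after the end of gefitinib, the vehicle library of day 21 had 3 members at least 2-fold higher than at day 14 of gefitinib and none lower, against 7.62% and 7.89% of all genes. These were Etv4 (1.61), Dusp6 (1.42) and Dusp4 (1.09). Spry1 was at 0.89, Spry2 at 0.49, Spred1 at 0.46, Dusp5 at 0.44, Etv5 at 0.42, Spry4 at 0.30 and Spred2 at -0.02. The epithelial median was 1.45 and Krt8 was 2.34 higher, so 9 of 10 members lay below the epithelial median; Etv4 was at 0.16 relative to it and Dusp6 at -0.03. Relative to that median 4 members were at least 2-fold lower (Spred2, Spry4, Etv5 and Dusp5) and none higher, against 78.4% and 0.729% of all genes. A position below the epithelial median was thus that of most of the table. Egfr was level in this pair (0.03), so taking it as the reference left the differences nearly as they were and is no separate check. On that scale Etv4, Dusp6 and Dusp4 were at least 2-fold higher and no member lower, against 7.12% and 8.3% of all genes. With Krt8 as the reference 8 members were lower and none higher, and so were 95.9% and 0.179% of all genes. Macrophage and T cell marker lists were lower in the same library, with medians of -1.15 and -1.32.

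Compared with vehicle at day 3, the day 21 vehicle library had Dusp5 2-fold higher (1.53) and no member 2-fold lower, against 15.3% and 3.11% of all genes. Dusp6 (0.19) and Etv4 (-0.16) were close to their first level, while Etv5 (-0.87), Spry2 (-0.86), Spred2 (-0.79), Spred1 (-0.74), Dusp4 (-0.70), Spry4 (-0.67) and Spry1 (-0.39) lay below it. The epithelial median was 0.11 and Krt8 was at 1.85. Per 100 TPM of Krt8, Dusp6 was 19.5 and Etv4 8.42, against 61.8 and 34.1 at the start; per 100 TPM of Epcam they were 101.7 and 43.9, against 51.8 and 28.6.

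With DC101, against vehicle at day 21, no member was 2-fold apart, where 3.12% of all genes were higher and 1.11% lower. The members lay between -0.53 (Dusp5, 35.4 against 51.6 TPM) and 0.20 (Spry4, 20.5 against 17.7), with a median of -0.01. Dusp6, at 258 against 338 TPM, was the next lowest at -0.39. The epithelial median was -0.27, and muscle genes had a median of 2.51. Relative to the epithelial median no member was 2-fold apart either, against 4.57% of all genes higher and 0.493% lower. Without replicates the interval of these differences cannot be given.

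With 4H2, against the same vehicle library, all 10 members had lower values, 7 of them by 2-fold, against 20.0% of all genes lower and 10.9% higher. Etv4 differed by -5.03, Dusp4 by -3.10, Dusp6 by -3.05, Spry1 by -2.67, Spry4 by -2.02, Spred1 by -1.67 and Spry2 by -1.49. Dusp5 (-0.90), Spred2 (-0.71) and Etv5 (-0.67) were under 2-fold. The 15 epithelial genes were all lower, with a median of -6.38, and every member lay above that median by 1.35 (Etv4) to 5.71 (Etv5); all 10 did so by at least 2-fold and so did 99.5% of all genes, with 0.0214% lower, so this position is that of nearly the whole table. The library held 1.22% of the epithelial TPM of vehicle at day 3, and against that same library 2.15% of the Etv4 level, 6.64% of Dusp4, 13.5% of Dusp6, 33.3% of Etv5 and 158.1% of Dusp5. All 12 skeletal muscle genes were higher than in vehicle at day 21, with a median of 4.74, and their part in the members' values was not tested.

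With both antibodies 8 members were 2-fold lower than in vehicle at day 21 and none higher, against 17.0% and 11.7% of all genes. Etv4 differed by -3.44, Dusp4 by -2.69, Dusp6 by -2.58, Spry1 by -2.15, Spred1 by -1.64, Spry4 by -1.46, Spry2 by -1.44 and Dusp5 by -1.20, with Spred2 at -0.64 and Etv5 at -0.48. Dusp5 was at -0.97 with median-of-ratios rescaling. The epithelial median was -3.93. Relative to it 9 members were at least 2-fold higher and none lower, as were 98.1% and 0.0143% of all genes. The combination and 4H2 alone were set against the same vehicle library. Directly against 4H2, the combination had Etv4 at 12.5 against 3.5 TPM (1.58), the 1 member 2-fold higher, with none lower, against 4.94% and 0.464% of all genes. The epithelial median was 2.57 with 14 of 15 higher, and the other members lay between -0.30 and 0.56. Against DC101, 7 members were 2-fold lower and none higher, against 14.3% and 11.1% of all genes, led by Etv4 (-3.31), Dusp4 (-2.75) and Dusp6 (-2.19).

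**Figure D5:**
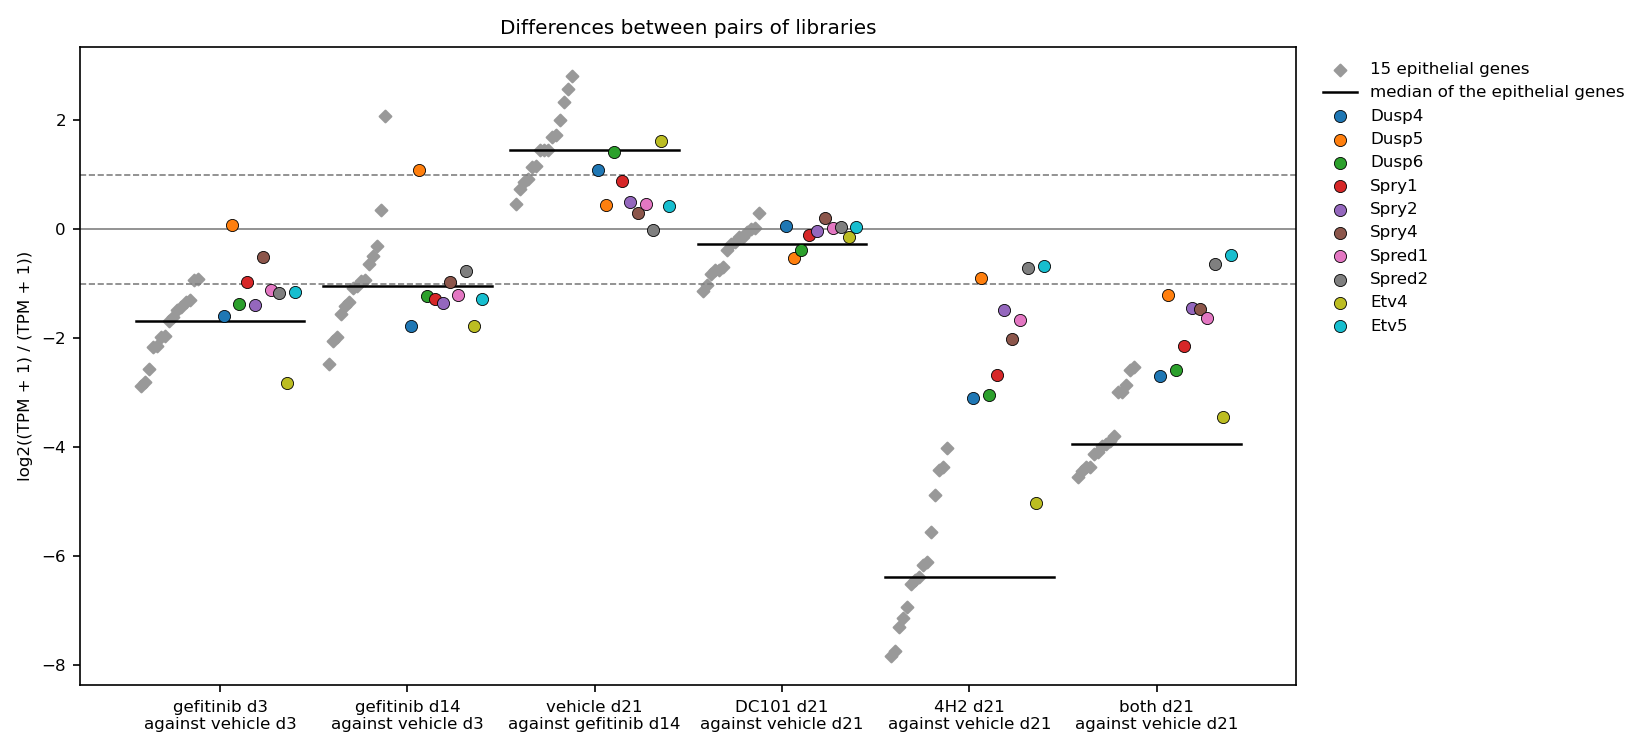
Log2 differences of the 10 members (colored circles) and of the 15 epithelial genes (grey diamonds, ordered by value; black line, their median) in the 6 main pairs of libraries; dashed lines mark 2-fold. With 4H2 the members lie between -5.03 and -0.67, above the epithelial median of -6.38, and with DC101 none passes 2-fold.

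Genes of cell division, also read as output of the pathway, were lower on gefitinib in 8 of 8 cases at both times. The shares of all genes lower were 14.4% and 12.7%. After its end 7 of 8 were higher (7.62% of all genes), and with DC101 all were under 2-fold. They were lower in 8 of 8 with 4H2 (20.0% of all genes) and with both antibodies (17.0%). Their medians were -2.35 and -2.61 on gefitinib, 2.07 after it, -0.14 with DC101, -3.36 with 4H2 and -2.03 with both. The epithelial medians in the same order were -1.69, -1.05, 1.45, -0.27, -6.38 and -3.93. The part of the cell mix was not tested.

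The rest of the pathway, 73 genes in 8 lists by role of which 70 passed the minimum level, did not share one direction under gefitinib and was called about as often as the whole table. At day 3 of gefitinib 12 of 70 were higher (17.1%) and 9 lower (12.9%), against 20.8% and 14.4% of all genes. At day 14 18 were higher (25.7%) and 7 lower (10%), against 22.7% and 12.7% of all genes, and the median was 0.02 both times. The cascade itself was mostly level: of 18 genes for RAS, RAF, MEK, ERK and their adaptors, 2 were higher and none lower at each time. Of 7 other MAP kinase phosphatases 3 were higher and 1 lower at day 3, and 4 were higher and 1 lower at day 14. Their medians were 0.95 and 1.51, and the shares of all genes are those just given. The lower one at both times was Dusp9. Dusp9, which acts on ERK, was at 3.7 against 22.1 TPM at day 3 of gefitinib, 4.5 at day 14 and 41 in vehicle at day 21, whereas Dusp2, a phosphatase of activated lymphocytes, was at 2.3 TPM in vehicle at day 3 and 17.5 and 44.1 on gefitinib.

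Immediate early genes, the first transcripts after ERK activation, counted 5 of 11 higher and 1 lower at day 3 of gefitinib and 6 of 11 higher and 1 lower at day 14, in pairs where all genes also leaned higher (20.8% against 14.4%, and 22.7% against 12.7%). Their medians were 0.67 and 1.39, where those of all genes were -0.09 and 0.03. Fos was at 58.2 and 56.3 against 9.7 TPM. Ets1, an ETS factor of lymphocytes and vessels, was at 71.8 and 103 against 13.1 TPM, beside T cell markers such as Cd3e at 52.2 and 167.7 against 5.3; the part of lymphocytes in it was not tested. Of 10 delayed ERK targets, 4 were lower at day 3 and 3 at day 14, with 1 higher at day 14, beside 14.4% and 12.7% of all genes lower. Epha4, a receptor of the ephrin family, was at 11.3 and 10.9 against 45 TPM, and Epha2 at 31.2 against 96.8 at day 14. Outside that list Erbb3, the receptor partner of EGFR, was at 41.5 against 147.4 TPM at day 3.

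After the end of gefitinib 6 of the 10 delayed targets were higher and none lower, beside 7.62% and 7.89% of all genes. Among the 6 was the EGFR ligand gene Areg at 179.1 against 27 TPM. The delayed targets had a median of 1.46, and the epithelial genes had one of 1.45, with 11 of 15 higher. The part of epithelial RNA in the delayed targets was not tested. None of 11 immediate early genes was 2-fold apart from day 14. With DC101 the ligand gene Hbegf was at 24 against 61.5 TPM, 1 of 2 pathway genes 2-fold lower; the other, Fosl1, named after its value was seen, was at 1.2 against 3.9. With 4H2 27 of 70 pathway genes were lower and 2 higher, against 20.0% and 10.9% of all genes, and with both antibodies 25 and 2, against 17.0% and 11.7%. In each of these libraries 9 of 10 delayed targets and 4 of 11 immediate early genes were lower. The 2 higher ones were the same in both: Dusp10, a phosphatase of the stress kinases, at 39 and 48.2 against 11.4 TPM, and Ksr1, a scaffold of the cascade, at 52.7 and 42.4 against 16.3, beside muscle genes such as Ckm at 11344 and 11562 against 344.9. Whether muscle gave their RNA was not tested. With 4H2 and with both antibodies the delayed targets had medians of -2.97 and -2.68. Those of the epithelial genes, all 15 of which were lower, were -6.38 and -3.93. The part of epithelial RNA in the pathway genes that were lower was not tested.

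Profiles over the 7 libraries were compared as the mean absolute difference of log2(TPM + 1), each gene centred on its own mean. Among the members Spry2 and Spred1 were closest (0.11), followed by Spred2 and Etv5 (0.12), and Dusp5 and Etv4 were farthest apart (1.41); Etv4 and Etv5, of one factor group, were 1.33 apart. Of 6782 genes whose mean TPM reached 5 and whose profile spanned at least 1, the nearest to Dusp6 were Lrfn4 (0.08), Proser2 (0.11) and Arhgef5 (0.11), and to Dusp4 Pde4c (0.07), Fzd2 (0.14) and Dram1 (0.14). For Etv4 they were Hmgb3 (0.15), Kng2 (0.16) and Efna4 (0.17), and for Dusp5 Ly75 (0.14), Mlkl (0.17) and the immediate early gene Ier3 (0.17). The nearest genes were Mbip (0.04) for Spry1, Pcgf2 (0.08) for Spry2, Adgrf5 (0.12) for Spry4, Ermp1 (0.09) for Spred1, Mvb12b (0.04) for Spred2 and Ttll5 (0.07) for Etv5. Over the 5 libraries of groups without 4H2, 4 of the 30 nearest genes were again among the 3 nearest: Ly75 and Ier3 for Dusp5, Lrfn4 for Dusp6 and 1700030K09Rik for Etv5.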

How the data were processed

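RNA of frozen mouse tumors was depleted of ribosomal RNA and made into directional libraries, per the labels' protocols. The authors deposited TPM values for 21892 gene symbols with 1 decimal, and the submitters' processing notes name GRCm38.p6. For aligner, counter and gene models the sources used here give nothing. A TPM table holds no read depth, so depth is unknown and intervals from counts are left out. Groups follow the sample titles.

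With 1 library per group no test, standard error or p-value was computed. Differences used a pseudocount of 1 and the genes whose mean TPM reached 1 (Python 3.11.15, pandas 2.3.3). The computation was checked on values shifted by known factors without noise, which says nothing about how reliable a 2-fold call is. Members, lists and motifs were chosen with earlier results of these data known, motifs with the sequences in view, and Egfr and Nkx2-1 as single references after seeing the data. Named genes are the members, the tumor cell references, up to 3 highest and 3 lowest pathway genes per main comparison (2-fold apart and 10 TPM or more in 1 of the libraries), abundant markers and the nearest profiles. Alternatives were other pseudocounts, filters, scalings and reference genes. Positions and start-site windows are RefSeq's.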

Additional observations from a re-analysis of the deposited data

How the results depend on the processing

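No paired analysis was possible because each group is 1 library, and for the same reason no replicate could be left out. A changed filter leaves a member's log2 difference as it is, so the 60 values under each filter could not move. Of all 360 recomputed log2 differences of members, 355 kept their side of 2-fold, 4 dropped under it and 1 passed it. The sign of 1 changed, that of Spry2 with DC101 (-0.04, and 0.01 with median-of-ratios rescaling); at day 14 of gefitinib 0 members were higher with a pseudocount of 5, instead of 1. Median-of-ratios rescaling moved the median of all genes from -0.21 to 0.02 with 4H2 and from -0.17 to 0.05 with both antibodies, and the member medians to -1.61 and -1.32; it gave 4 pathway genes higher with both antibodies instead of 2.

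The position relative to epithelial genes depended on the reference, and the share of all genes moved with it. At day 3 of gefitinib, where 2 members were higher and 1 lower than the list median, 1 was higher against Krt8 (61.3% of all genes), 1 against Nkx2-1 (43.5%), 9 against Epcam (95.6%) and 0 against Egfr (26.0%); 0 were lower against Epcam (0.229%), 4 against Egfr (8.7%) and 0 with a pseudocount of 5. At day 14, where 1 was higher and none lower, 8 were higher against Epcam (93.6%), and 2 were lower against Krt8 (6.26%) and 2 against Egfr (6.01%). After gefitinib, where 4 were lower, 8 were lower against Krt8 (95.9%), 0 against Nkx2-1 (47.9%) and 0 against Egfr (8.3%), with 3 higher against Egfr (7.12%). Of 600 recomputed relative values 66 changed sign, all with a single gene as the reference. The 60 values under each changed filter were again the same as before. Median-of-ratios rescaling and removal of the muscle genes rescale a whole library, which nearly cancels on this scale. The 60 values under each of these could thus hardly move. With Egfr the sign changed for 8 of 10 members at day 3, 2 at day 14, 8 after gefitinib, 8 with DC101, and Etv4 with 4H2 and with both antibodies. With Epcam it changed for 7 at day 14, 1 after gefitinib and 8 with DC101. With Krt8 it changed for 3 at day 3, 2 at day 14, 1 after gefitinib and 2 with DC101. With Nkx2-1 it changed for 7 at day 3, 5 at day 14 and 2 after gefitinib. Those that had been past 2-fold all changed with Egfr. They were Spry4 at day 3 of gefitinib (-0.18), Dusp5 (0.41), Spry4 (0.27) and Etv5 (0.39) after it, and Etv4 with 4H2 (-0.57). The cause was not tested.

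Counts over all genes moved with the pseudocount. At 5 they were 1924 higher and 1343 lower at day 3 of gefitinib, 2073 higher at day 14, 674 higher and 538 lower after it, 203 higher and 51 lower with DC101, and 1012 higher with 4H2. At 0.1 they were 659 and 298 with DC101, and at a mean TPM of at least 5, 93 lower. The pathway genes lower with DC101 were 1 instead of 2 with a pseudocount of 5 and 1 with that filter.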
